A study of Rattus norvegicus and Mus musculus with 34 samples.

Results

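The comparison covered healing tissue from the mandibular bone defect of rats whose sensory nerve was left intact (sensory nerve+), taken 7 or 14 days after surgery. Its members were the 8 libraries labelled as control at day 7 or day 14, 4 rats per day, out of 23 rats and 34 samples in the series, and every gene row of the deposited table was considered. All 8 were wild-type male Sprague-Dawley rats of 6 to 8 weeks with a periodontal bone defect on the buccal side of the mandible, all were given penicillin for the first 3 days, and rats with obvious local infection had been left out by the authors. The inferior alveolar nerve, which carries sensation from the lower jaw, had been cut out over about 5 mm in the sensory nerve- rats that serve below as a reference, and 3 further sensory nerve+ rats were sampled at day 3. Each rat gave tissue at 1 day only, so the days compare different animals. The labels give the material as mixed cells, and no cell type was sorted. The question was which genes differ in the innervated wound between the first and the second week of repair.

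In a healing jaw, an early phase rich in macrophages and other leukocytes gives way to matrix made by fibroblasts, to bone laid down by osteoblasts and to remodelling by osteoclasts. Peripheral nerve fibres are wrapped by Schwann cells, which make myelin and, after injury, turn into a repair state that supplies neurotrophic factors to growing axons. Sensory fibres of the jaw release the neuropeptide CGRP, which acts on a receptor formed by Calcrl and Ramp1. In whole tissue, a lower number of cells of a type and less RNA per cell cannot be told apart, and this holds for every value that follows.

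Sox2 and Fgf5, both higher at day 14, were among the 3 genes that passed the threshold over all genes. Their promoters are shown with those of Ugt8, the gene of the enzyme that makes the myelin lipid galactosylceramide, and Cnp, a myelin enzyme gene, as examples from the leading genes (Ugt8) and from the myelin list (Cnp), both picked with the results known. Each window runs from 250 bases before to 50 bases after the gene start, 5′ to 3′ on the gene's own strand, in build GRCr8 of the rat genome from RefSeq, which is not the build the reads were aligned to. Capitals mark ACAAAG, the core that SOX factors bind, on either strand.
Sox2, chr2:119464881-119465180, plus strand: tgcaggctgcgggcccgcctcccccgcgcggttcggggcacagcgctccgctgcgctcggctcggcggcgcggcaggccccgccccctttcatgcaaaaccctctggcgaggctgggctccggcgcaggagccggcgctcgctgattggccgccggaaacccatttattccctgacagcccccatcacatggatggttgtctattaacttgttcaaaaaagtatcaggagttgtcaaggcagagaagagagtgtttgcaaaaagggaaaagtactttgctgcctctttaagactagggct
Fgf5, chr14:11650194-11650493, minus strand: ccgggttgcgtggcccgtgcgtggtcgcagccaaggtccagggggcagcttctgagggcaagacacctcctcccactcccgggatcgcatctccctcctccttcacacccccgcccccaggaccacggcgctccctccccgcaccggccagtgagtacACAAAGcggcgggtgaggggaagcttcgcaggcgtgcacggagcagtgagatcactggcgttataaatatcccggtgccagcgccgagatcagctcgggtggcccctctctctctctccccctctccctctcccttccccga
Ugt8, chr2:217007118-217007417, minus strand: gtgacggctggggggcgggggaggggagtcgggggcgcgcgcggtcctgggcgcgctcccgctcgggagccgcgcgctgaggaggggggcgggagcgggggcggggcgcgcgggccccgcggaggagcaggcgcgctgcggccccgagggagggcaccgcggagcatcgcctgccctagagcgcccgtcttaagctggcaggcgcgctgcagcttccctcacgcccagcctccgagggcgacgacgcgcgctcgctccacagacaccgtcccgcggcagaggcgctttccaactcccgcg
Cnp, chr10:86011254-86011553, plus strand: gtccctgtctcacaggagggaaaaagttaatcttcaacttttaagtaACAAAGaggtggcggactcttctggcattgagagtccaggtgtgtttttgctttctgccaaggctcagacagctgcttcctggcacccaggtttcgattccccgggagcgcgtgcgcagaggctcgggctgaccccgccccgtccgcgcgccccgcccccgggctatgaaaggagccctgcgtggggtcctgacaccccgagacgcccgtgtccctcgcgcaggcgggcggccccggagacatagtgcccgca
The core ACAAAG began 92 bases before the start of Fgf5 and 203 bases before the start of Cnp, both on the forward strand. It lay in 13.3% of the 11364 promoters of tested genes and in 2 of the 12 promoters (16.7%) found for the 15 tested myelin and Schwann cell genes, those of Cnp and Mag, and Mag was named after its values were seen. The related core ACAATG lay in 7.47% of the tested promoters and in 0 of the 12, and GCGTGGGCG, the site of EGR factors, in 1.06% and 0 of the 12. Both strands were searched, and ACAAAG and ACAATG share their opening letters, so that no start position can match both. These are matches of letters only, chosen after the gene results were known.

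Library totals lay between 15331439 and 18072057 counts at day 7 and between 15917473 and 17782819 at day 14. Values per rat are CPM, counts divided by a library size that was adjusted by the trimmed mean of M values (TMM) and put on one common total. Markers of bone, matrix, osteoclasts and macrophages were present in all 8 rats. Skeletal muscle, blood and, in some rats, tooth and epithelium were present as well. There were 3 libraries that stood apart. Day 14 rat 2 lacked most muscle RNA, with a mean of 3.31 log2(CPM + 0.5) over the muscle list against 8.45 to 9.43 in the other day 14 rats, and held more neutrophil RNA, at 7.11 against 1.57 to 4.84. Day 7 rat 3 carried epithelial and enamel RNA, with an epithelium mean of 2.69 against 0.16 to 0.78. Day 7 rat 4 was rich in blood, with Hba-a1, a hemoglobin alpha chain, taking 13.1% and Hbb, a beta chain, 8.18% of its counts. Both belong to families of near-identical copies, so reads may be split between copies. The first principal component held 44.1% of the variance and placed day 14 rat 2 at 126.7 with the other 7 rats between -37.6 and 13.5. Day 7 rat 3 stood at 88.9 on the second, which held 26.1%. Where leaving out one of these libraries moved a printed log2 fold change of a gene by over 1.5 times on the log2 scale, the value without it follows. Smaller moves of the log2 value, which can still be large as folds, are not printed.

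**Figure D1:**
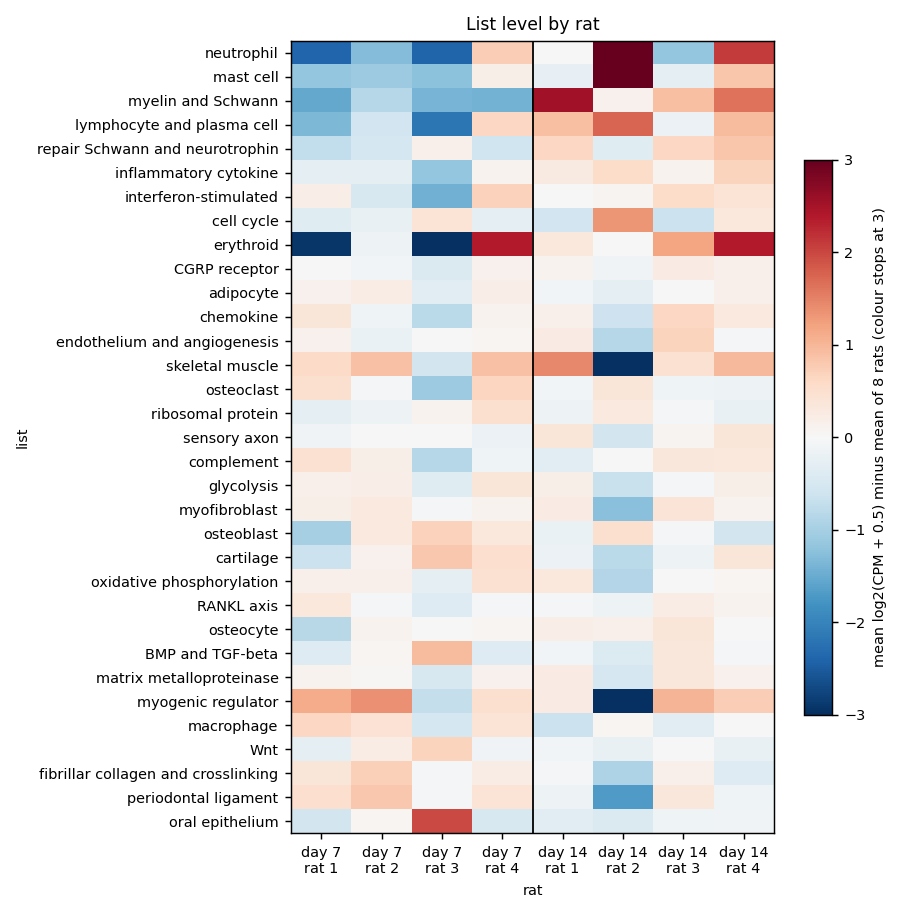
Level of each gene list in each of the 8 sensory nerve+ rats. Colour gives the mean log2(CPM + 0.5) over the genes of the list minus its mean over the 8 rats, with red above and blue below, and the colour scale stops at 3 in either direction. The myelin and Schwann cell row is higher in every day 14 rat than in any day 7 rat, whereas the muscle row separates day 14 rat 2 from all others.

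Of 20022 genes, 14867 had enough counts to be tested. Sox2, Fgf5 and Msr1 passed the threshold of adjusted p under 0.05 (0.0202% of tested genes, edgeR quasi-likelihood test with Benjamini-Hochberg adjustment, adjusted p = 0.0381 for each). Without adjustment, 774 genes (5.21%) reached p under 0.05 with a higher level at day 14 and 627 (4.22%) with a lower level. The 4 rats of each day did not overlap for 375 genes (2.52%) higher at day 14 and for 450 genes (3.03%) lower. The median log2 fold change, day 14 over day 7, was -0.02, and 46.6% of genes were higher at day 14.

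Sox2, a transcription factor of neural progenitors that is also found in Schwann cells after injury, was at 0.314, 0.492, 0.616 and 0.181 CPM in the 4 day 7 rats. At day 14 it was at 15.7, 7.19, 10.4 and 11.2 CPM. Every day 14 rat lay far above every day 7 rat. It rose 26.6-fold (log2 fold change 4.73, SE 0.436). Fgf5, a secreted growth factor, stood at 0.209, 0.382, 0.142 and 0.0904 CPM at day 7 and at 17.3, 4.70, 13.8 and 12.8 CPM at day 14. It rose 55.5-fold (log2 fold change 5.79, SE 0.582), with 1 to 7 counts per library at day 7 and 87 to 292 at day 14. In both genes day 14 rat 2 was the lowest of its group and was still apart from day 7.

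Msr1, the scavenger receptor A of macrophages, went the other way. It was at 54.0, 46.5, 30.8 and 35.8 CPM at day 7 and at 7.16, 9.24, 8.11 and 10.4 CPM at day 14, with no overlap. It fell 4.79-fold (log2 fold change -2.26, SE 0.220). All 3 calls held when day 14 rat 2 was left out, and none held when any other rat was left out, with adjusted p up to 0.211 for Sox2 and Msr1 and up to 0.262 for Fgf5. DESeq2 called 325 genes on the same counts, these 3 among them.

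The next genes by unadjusted p among those without overlap did not pass the adjustment. Itgb8, an integrin subunit that activates latent TGF-beta, was at 6.75, 7.32, 6.91 and 4.07 CPM at day 7 against 152, 29.8, 76.1 and 125 CPM at day 14 (log2 fold change 3.93, SE 0.509, adjusted p = 0.105). Cdh19, a cadherin of the Schwann cell lineage, was at 1.52, 2.84, 1.52 and 0.814 CPM against 50.3, 11.4, 25.1 and 35.5 CPM (4.17, SE 0.554). Ugt8 was at 0.366, 0.874, 0.474 and 0.904 CPM against 41.3, 21.2, 7.17 and 24.0 CPM (5.17, SE 0.611, adjusted p = 0.0775). In each of these genes the day 14 rats spread several-fold among themselves, with rat 2 lowest in Itgb8 and Cdh19 and rat 3 lowest in Ugt8. Pappa1, a protease of IGF-binding proteins, was at 3.07 to 5.85 CPM at day 7 and 14.3 to 34.7 CPM at day 14 (2.45, SE 0.335). Tcp11x2, at 0 or 1 count per library at day 7, reached 20 to 68 counts at day 14, and Cfap299, at 0 to 4 counts, reached 31 to 69.

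The other 7 leading genes that were lower at day 14 did not pass the adjustment, and all but Slc4a5 had smaller log2 fold changes than Msr1. Xylb, a xylulose kinase, was at 36.8, 33.1, 31.4 and 41.8 CPM at day 7 and at 19.4, 18.1, 20.8 and 19.5 CPM at day 14 (log2 fold change -0.88, SE 0.131, adjusted p = 0.105). Mtss1, an actin-binding protein, was at 83.3 to 111 CPM against 52.8 to 61.0 CPM (-0.84, SE 0.128). Papss2, which makes the sulfate donor for matrix glycosaminoglycans, was at 35.7 to 44.3 CPM against 14.8 to 22.8 CPM (-1.03, SE 0.162). Chsy3, a chondroitin sulfate synthase, was at 7.81 to 11.8 CPM against 3.64 to 4.24 CPM (-1.28, SE 0.217). Papss2 and Chsy3, both of sulfated matrix sugar synthesis, were thus among the 8 leading genes that were lower at day 14. Slc4a5, a bicarbonate transporter, was at 3.07 to 18.6 CPM against 0.378 to 0.691 CPM, Bcat1, a branched-chain amino acid transaminase, at 118 to 132 CPM against 73.0 to 86.5 CPM, and Hoga1 at 13 to 16.6 CPM against 6.75 to 9.17 CPM.

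Myelin and Schwann cell genes were higher at day 14 as a list. All 15 tested genes had a higher fitted level, 13 with unadjusted p under 0.05 and 10 with no overlap, against 5.21% and 2.52% of all tested genes. None of the 15 passed the adjusted threshold. Their median log2 fold change was 2.76 beside -0.02 over all genes, and it was 3.09 without day 14 rat 2.

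Mbp, which compacts the myelin membrane, was at 6.65, 10.2, 2.98 and 10.2 CPM at day 7 and at 431, 71.5, 99.8 and 151 CPM at day 14 (log2 fold change 4.65, SE 0.709, adjusted p = 0.105). Day 14 rat 1 was highest and rat 2 lowest of the day 14 rats, and every day 14 rat lay above every day 7 rat. Cldn19, a claudin of myelin junctions, was at 0.157 to 0.765 CPM against 3.68 to 47.5 CPM (5.73, SE 0.968). Pmp22, a myelin protein that other cells also make, overlapped, at 54.2 to 128 CPM against 577, 65.1, 165 and 262 CPM (1.63, SE 0.627). Day 14 rat 2 alone lay within the day 7 range.

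Sox10, the transcription factor that specifies the Schwann cell lineage, was at 1.68, 4.59, 2.08 and 0.452 CPM at day 7 and at 75.6, 16.8, 38.4 and 51.2 CPM at day 14 (log2 fold change 4.34, SE 0.708, adjusted p = 0.141). S100b, a calcium-binding Schwann cell marker, was at 5.39, 6.94, 3.88 and 10.6 CPM against 65.2, 24.0, 58.4 and 48.9 CPM (2.88, SE 0.407, adjusted p = 0.105). Cnp was already present at day 7, at 53.2 to 94.4 CPM, and was at 151 to 230.4 CPM at day 14 (1.44, SE 0.218). Regulators and markers of the lineage were thus higher along with the structural myelin genes. Without day 14 rat 2, 28 genes passed the adjusted threshold, 27 of them higher, and S100b (adjusted p = 0.0283), Cldn19 (0.0403), Cdh19 (0.0217), Ugt8 (0.0419) and Itgb8 (0.0127) were among them.

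**Figure D2:**
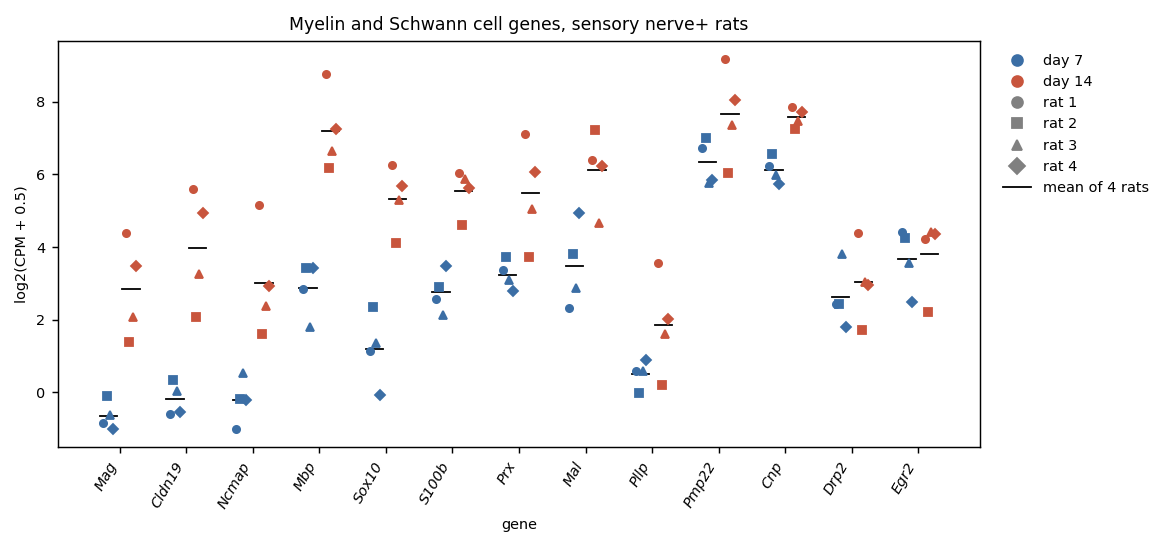
The plot shows 13 myelin and Schwann cell genes in the 4 day 7 rats (blue) and the 4 day 14 rats (red), on a scale of log2(CPM + 0.5), with marker shape for the rat and a bar for the mean of 4 rats. In 8 of the genes the day 14 rats all lie above the day 7 rats, and day 14 rat 2 (square) is the lowest of its group in 12 of 13.

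Genes of the repair Schwann cell and of neurotrophic supply were higher in part. Of 17 tested, 12 were higher at day 14, 7 with unadjusted p under 0.05 and 5 with no overlap, against 5.21% and 2.52% of all genes. Their median log2 fold change was 1.14 (1.36 without day 14 rat 2). Gfra1, the GDNF co-receptor, was at 29.3, 32.6, 22.5 and 10.8 CPM at day 7 and at 124, 89.4, 143 and 186 CPM at day 14 (2.51, SE 0.373, adjusted p = 0.105). L1cam, an adhesion molecule of axons and non-myelinating Schwann cells, was at 1.85 to 5.30 CPM against 15.4 to 44.3 CPM (3.31, SE 0.50, adjusted p = 0.105). The receptor Ngfr, which binds neurotrophins, was at 6.33, 12, 49.1 and 1.72 CPM against 124, 63.4, 113 and 138 CPM (2.66, SE 0.881, and 4.02 without day 7 rat 3). Among the ligands, Bdnf was at 0.723 to 1.57 CPM against 2.65 to 6.34 CPM (1.96, SE 0.390, adjusted p = 0.252), whereas Gdnf overlapped, at 1.81 to 9.28 CPM against 3.30 to 14.9 CPM. The receptors and the adhesion gene were thus separated by day, and of these 2 ligands Bdnf was.

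Transcripts of the sensory neurons themselves were scarce. The cell bodies of these neurons lie in the trigeminal ganglion, outside the jaw. Of 18 genes listed, 8 passed the filter on low counts, 0 of them with unadjusted p under 0.05. Over all tested genes 5.21% were higher and 4.22% lower at that threshold. Calca, which encodes CGRP, was at 0.0904 to 0.331 CPM at day 7 and 0.0592 to 0.314 CPM at day 14 and was not tested. Tac1, the substance P precursor, was at 0 to 0.237 and 0 to 0.314 CPM. Trpv1, the capsaicin receptor, was at 1.66 to 4.29 CPM against 0.432 to 3.85 CPM, P2rx3, a nociceptor ion channel, at 0.785 to 1.09 CPM against 0.757 to 1.00 CPM, and Tubb3, a neuronal tubulin, at 5.60 to 15.1 CPM against 1.78 to 7.10 CPM. No difference between the days in these transcripts was detectable at this depth. On the receiving side, Calcrl was at 47.9 to 119 CPM against 24.5 to 80.0 CPM and Ramp1 at 3.5 to 8.59 CPM against 5.11 to 17.4 CPM, both overlapping. Ramp3, which pairs Calcrl with adrenomedullin, was at 6.13, 7.38, 6.63 and 17.9 CPM against 17.8, 22.7, 17.3 and 17.3 CPM (log2 fold change 0.99, SE 0.362, adjusted p = 0.497, and 1.49 without day 7 rat 4), and day 7 rat 4 lay within the day 14 range.

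Neutrophil genes had the highest median of the lists with 5 or more tested genes, and their low unadjusted p values rested on 1 rat. Of 20 tested, 19 were higher at day 14 and 12 had unadjusted p under 0.05, but in 0 of them were the days without overlap. Over all tested genes 5.21% were higher at unadjusted p under 0.05 and 2.52% were higher with no overlap. The median log2 fold change was 3.89. Without day 14 rat 2 it was 2.16, with 19 of 20 genes still higher and 0 genes at unadjusted p under 0.05. Over all genes, 756 of 14867 were higher at that threshold without this rat. S100a8, a subunit of calprotectin, was at 1.41, 14.3, 2.46 and 117 CPM at day 7 and at 66.2, 1819, 16.2 and 354 CPM at day 14 (4.07, SE 1.84, with 2.12 without day 14 rat 2 and 6.54 without day 7 rat 4). Mpo, the myeloperoxidase of neutrophil granules, was at 0.105, 0.382, 0.0947 and 8.77 CPM against 4.2, 585, 0.561 and 58.2 CPM. Elane, neutrophil elastase, was at 0 to 2.26 CPM against 0.710, 142, 0.312 and 14.4 CPM, and Csf3r, the G-CSF receptor, at 5.45 to 99.3 CPM against 20.6 to 313 CPM. Day 7 rat 4 was the highest of the day 7 rats in all 4 genes and lay above the lowest day 14 rats. The same rat held the most hemoglobin RNA, and the part of blood or marrow RNA in these values was not tested.

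Mast cell genes behaved likewise. Of 9 tested, 8 were higher at day 14 and 6 had unadjusted p under 0.05, against 5.21% of all genes. The median log2 fold change was 3.30. Without day 14 rat 2 it was 1.30, with 8 of 9 genes still higher and 1 at unadjusted p under 0.05. Over all genes, 756 of 14867 were higher at that threshold without this rat. Cpa3, a mast cell carboxypeptidase, was at 2.04, 1.97, 0.758 and 11.9 CPM at day 7 and at 5.03, 148, 6.11 and 24.6 CPM at day 14. Ms4a2, the beta chain of the IgE receptor, was at 0.237 to 2.53 CPM against 2.07, 71.4, 1.25 and 10.6 CPM, and the tryptase gene Tpsb2 at 0 to 2.26 CPM against 1.36, 38.6, 0.873 and 4.02 CPM. Kit was an exception, with a log2 fold change of -1.88 (SE 1.06). It was at 297 CPM in day 7 rat 3 and 10.9 to 23.9 CPM in the other day 7 rats, against 13.6 to 46.5 CPM at day 14, and without day 7 rat 3 its log2 fold change was 0.34.

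B cell genes were separated by day even though their spread was wide. Of 24 tested genes of lymphocytes and plasma cells, 21 were higher at day 14. Of these, 7 had unadjusted p under 0.05 and 6 had no overlap, against 5.21% and 2.52% of all genes. The median log2 fold change was 1.35 (1.12 without day 14 rat 2). Cd79a, the signalling chain of the B cell receptor, was at 1.88, 8.36, 1.47 and 17.3 CPM at day 7 and at 50.1, 255, 25.5 and 84.2 CPM at day 14 (3.86, SE 1.03, adjusted p = 0.384). Its partner Cd79b was at 0.524 to 9.58 CPM against 13.6 to 147 CPM (3.71, SE 1.07). Mzb1, a chaperone of antibody-secreting cells, was at 0.474 to 2.17 CPM against 2.37 to 42.1 CPM (3.69, SE 1.02, and 2.18 without day 14 rat 2). The T cell gene Cd3e overlapped, at 3.35, 6.17, 0.852 and 23.9 CPM against 27.8, 25.2, 10.5 and 17 CPM. In all of these the highest day 7 value was again that of rat 4.

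Of 18 tested inflammatory cytokine genes, 13 were higher at day 14, 6 with unadjusted p under 0.05 against 1 lower, and 3 had no overlap. Over all tested genes 5.21% were higher and 4.22% lower at unadjusted p under 0.05, and 2.52% were higher with no overlap. The median log2 fold change of 1.12 was 0.46 without day 14 rat 2. The 3 with no overlap were Lif, Socs3 and Hp. Lif, a cytokine of the IL-6 family, was at 5.60, 4.04, 3.03 and 5.15 CPM at day 7 and at 12, 8.27, 12.9 and 17 CPM at day 14 (1.49, SE 0.296, adjusted p = 0.252). Socs3, the feedback inhibitor of that family's signal, was at 31.8, 24.7, 14.7 and 42.6 CPM against 100.2, 45.7, 112 and 159 CPM (1.88, SE 0.433, adjusted p = 0.309). Hp, the acute phase protein haptoglobin, was at 2.27 to 5.97 CPM against 22.3, 260.3, 11.5 and 52.8 CPM (4.34, SE 1.02, and 2.75 without day 14 rat 2). Il6 itself was at 0.142 to 1.15 CPM against 2.01, 0.324, 23 and 10.3 CPM (3.65, SE 1.22), with rat 2 inside the day 7 range. Il1b was at 1.18 to 35.5 CPM against 14.3 to 118 CPM and Tnf at 0.426 to 1.78 CPM against 0.473 to 2.0 CPM, both overlapping. Of the interferon-stimulated list, 21 of 23 tested genes were higher and 3 had unadjusted p under 0.05, against 46.6% and 5.21% of all genes. The median was 0.43. Irf1, a transcription factor of interferon response, was at 31.2 to 40.3 CPM against 43.4 to 85.8 CPM (0.79, SE 0.213). Among 24 chemokine genes 2 were higher and 1 lower at unadjusted p under 0.05, against 5.21% and 4.22% of all genes. Cxcl12 was at 134 to 306 CPM against 220.0 to 814 CPM and Ccl3, a macrophage chemokine, at 13.6 to 37.6 CPM against 7.87 to 14.4 CPM. Of 21 complement genes, C3, the central component, was the one with no overlap, where 2.52% of all genes were higher with no overlap. C3 was at 6.72 to 32.5 CPM against 44.4, 335, 45.2 and 45.6 CPM (2.79, SE 0.851, and 1.41 without rat 2).

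Macrophage genes were lower at day 14 in 16 of 21 tested, 7 with unadjusted p under 0.05 and 3 with no overlap, against 4.22% and 3.03% of all genes. Msr1 was the one that passed the adjustment. The median log2 fold change was -0.37 and was -0.65 without day 14 rat 2. Arg1, an arginase of alternatively activated macrophages, was at 3.72, 8.80, 4.40 and 8.50 CPM at day 7 and at 2.49, 0.811, 2.06 and 2.89 CPM at day 14 (-1.62, SE 0.469, adjusted p = 0.422). Mrc1, the mannose receptor, was at 180.4, 200.2, 75.1 and 152 CPM against 46.9, 99.0, 64.4 and 71.6 CPM (-1.11, SE 0.336), with day 7 rat 3 inside the day 14 range. Cd68, a lysosomal protein of macrophages, was at 474, 300.2, 112 and 283 CPM against 110.4, 185, 136 and 122 CPM (-1.08, SE 0.398), with the same rat overlapping. The surface marker Adgre1 did not separate the days, at 23 to 66.0 CPM against 25.0 to 70.2 CPM, and Nos2, the inducible nitric oxide synthase, was at 1.70 to 43.6 CPM against 5.92 to 77.9 CPM.

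Collagen and crosslinking genes had fitted changes below 0 in all 25 tested, though 20 overlapped between the days and 0 passed the adjustment. Of the 25, 9 had unadjusted p under 0.05 and 5 had no overlap, against 4.22% and 3.03% of all genes. Their median log2 fold change was -0.53 (-0.42 without day 14 rat 2). The enzymes that modify collagen led. P4ha2, a prolyl hydroxylase, was at 47.9, 59.9, 76.4 and 61.3 CPM at day 7 and at 30.7, 17.8, 38.6 and 28.3 CPM at day 14 (-1.09, SE 0.248, adjusted p = 0.309). Lox, the lysyl oxidase that crosslinks collagen, was at 385, 475, 328 and 333 CPM against 189, 108, 263 and 185 CPM (-1.03, SE 0.274, adjusted p = 0.384). Plod2, a lysyl hydroxylase, was at 272 to 363 CPM against 189 to 239.7 CPM (-0.56, SE 0.150). The chains Col1a1 and Col3a1 overlapped. Col1a1, the main chain of bone collagen, was at 6949.7 to 20329.8 CPM against 7374 to 18220.1 CPM, and Col3a1, a chain of early wound matrix, at 7161 to 16248 CPM against 7066, 1577, 8254 and 5241 CPM (-1.10, SE 0.583).

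Genes of the periodontal ligament, which ties the tooth to bone, were lower in 17 of 18 tested, with a median of -0.66 (-0.56 without day 14 rat 2). Unadjusted p was under 0.05 in 4 and 1 had no overlap, against 4.22% and 3.03% of all genes. Lum, the proteoglycan lumican, was the one, at 1599.6, 1719, 2181 and 2449.7 CPM at day 7 against 1321, 659, 1518 and 919.9 CPM at day 14 (log2 fold change -0.85, SE 0.320, adjusted p = 0.501). Tnc, the wound glycoprotein tenascin C, was at 1589, 2401, 3049 and 506 CPM against 663, 542, 657 and 814 CPM (-1.5, SE 0.496), with day 7 rat 4 below all day 14 rats. Postn, periostin, was at 1711 to 6045 CPM against 2533, 444, 2454 and 2216 CPM, Sfrp2, a secreted Wnt modulator, at 91.9 to 346 CPM against 22.3 to 129.9 CPM (-1.53, SE 0.613), Scx, a tendon transcription factor, at 4.26 to 24.7 CPM against 0.919 to 28.1 CPM, and Tnmd, tenomodulin, at 2.08 to 39.1 CPM against 0.703 to 15.2 CPM. Day 14 rat 2 was the lowest of its group in all 6 of these genes. It was also the rat with the least muscle RNA, and the part of the tissue sampled in these values was not tested.

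Of 17 tested metalloproteinase genes, 7 were higher and 10 lower at day 14. At unadjusted p under 0.05, 3 were higher and 1 lower, against 5.21% and 4.22% of all tested genes, so that the lower count was near that share. Mmp14, a membrane collagenase, was at 626, 584, 339 and 385 CPM at day 7 against 303, 117, 329 and 259.9 CPM at day 14 (-0.94, SE 0.354, adjusted p = 0.501) with no overlap, and the gelatinase Mmp2 at 698 to 1051 CPM against 209 to 772 CPM. Mmp13, the collagenase of bone and cartilage, was at 137, 101, 65.5 and 508 CPM against 508, 1008, 575 and 488 CPM (1.67, SE 0.645, and 2.67 without day 7 rat 4), where day 7 rat 4 reached the day 14 range. Adamts1, an aggrecanase, was at 29.3 to 58.6 CPM against 135, 21.6, 153 and 154 CPM (1.43, SE 0.544), and without day 14 rat 2 it passed the adjusted threshold (1.77, adjusted p = 0.0415).

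**Figure D3:**
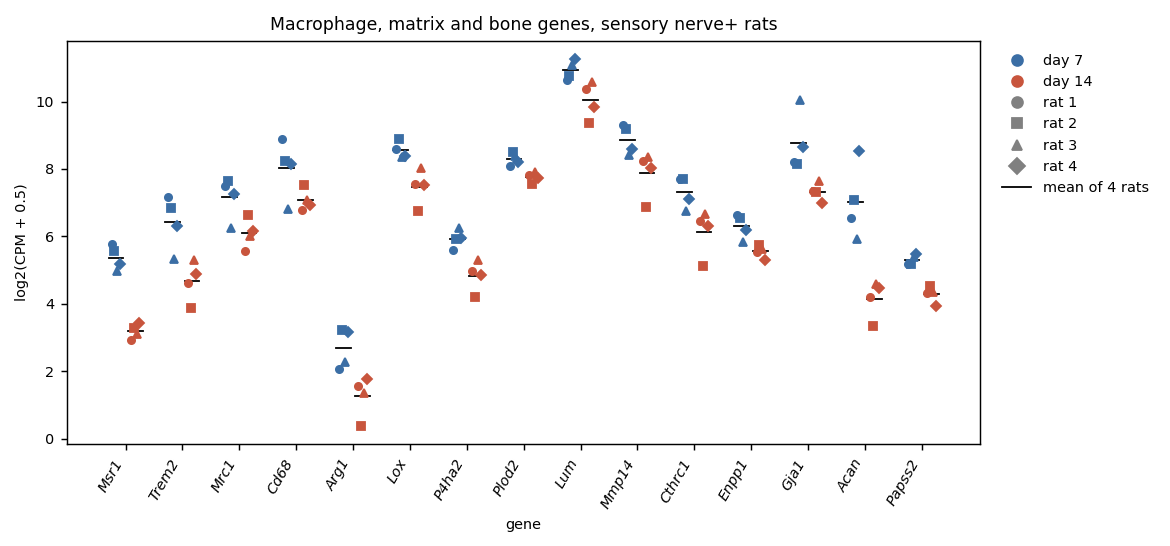
The plot holds 15 macrophage, matrix, bone and cartilage genes, picked with their values known, in the 4 day 7 rats (blue) and the 4 day 14 rats (red), on a scale of log2(CPM + 0.5), with marker shape for the rat and a bar for the mean of 4 rats. Means at day 14 are below those at day 7 in all 15, with no overlap in Msr1, which passed the adjusted threshold, and with day 7 rat 3 inside the day 14 range in Mrc1 and Cd68.

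Bone formation genes mostly overlapped between the days, though 2 of 23 were lower with no overlap, against 3.03% of all genes. Of 23 osteoblast genes tested, 8 were higher and 15 lower, 0 and 4 with unadjusted p under 0.05, against 5.21% and 4.22% of all genes. The median was -0.15. It turned positive without day 7 rat 3, day 7 rat 4 or day 14 rat 4 (up to 0.07). Without day 14 rat 2 it was -0.40, with 3 of 23 higher. The regulators Runx2, at 59.3 to 102 CPM against 67.4 to 133 CPM, and Sp7, at 10.3 to 125 CPM against 10.9 to 91.0 CPM, overlapped. So did Alpl, the phosphatase of mineralization, at 45.6, 159.9, 563 and 225 CPM against 118, 257, 143 and 84.1 CPM, and Ibsp, bone sialoprotein, at 61.0 to 1590.2 CPM against 252 to 1174 CPM. Bglap, the late marker osteocalcin, was at 1.83, 150.1, 52.1 and 149 CPM against 116, 808, 472 and 177 CPM (2.16, SE 1.11), and Spp1, osteopontin, at 1175 to 4643 CPM against 854 to 2144 CPM (-1.27, SE 0.488). Enpp1, which makes the mineralization inhibitor pyrophosphate, did not overlap, at 99.4, 93.5, 56.9 and 72.9 CPM against 46.4, 52.9, 49.1 and 39.3 CPM (-0.78, SE 0.197, adjusted p = 0.354), nor did Cthrc1, a secreted matrix protein of active wound fibroblasts and osteoblasts, at 108 to 209.7 CPM against 34.4 to 102 CPM (-1.14, SE 0.358).

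The 13 osteocyte genes tested had a median of -0.29. At unadjusted p under 0.05, 1 was higher and 2 were lower, against 5.21% and 4.22% of all genes. Reln, reelin, was the higher one, at 5.76, 12, 4.07 and 5.97 CPM at day 7 against 55.8, 15.7, 34.5 and 71.4 CPM at day 14 (log2 fold change 2.67, SE 0.523, adjusted p = 0.244). Gja1, the gap junction protein connexin 43, was at 293, 285, 1047 and 403 CPM against 162, 159, 199.8 and 127 CPM (-1.65, SE 0.444, adjusted p = 0.384, and -1.01 without day 7 rat 3), and Pdpn, an early osteocyte protein also found on lymphatic vessels, at 49.9 to 68.8 CPM against 12.6 to 45.0 CPM (-0.84, SE 0.360). All 3 were without overlap, against 2.52% of all genes higher and 3.03% lower. The osteocyte matrix genes Dmp1, at 4.40, 70.4, 23.3 and 79.3 CPM against 121, 162, 139 and 67.9 CPM (1.47, SE 0.750), and Mepe, at 0.474 to 18.7 CPM against 13.6 to 49.5 CPM (1.94, SE 1.05, and 2.95 without day 7 rat 4), overlapped. Sost, the sclerostin gene, was below 1 CPM in all rats other than day 14 rat 2, at 2.32 CPM, and was not tested.

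Osteoclast genes overlapped between the days with 1 exception. Of 22 tested, 8 were higher and 14 lower, with a median of -0.06. Without day 14 rat 2 the median was -0.33, with 5 of 22 higher. It turned positive without day 7 rat 1 or day 7 rat 4 (up to 0.10). Trem2 was the one gene with unadjusted p under 0.05, where 4.22% of all genes were lower at that threshold. Trem2, a receptor shared by osteoclast precursors and macrophages, was at 143, 115, 40.0 and 78.9 CPM at day 7 against 24.3, 14.2, 38.7 and 28.8 CPM at day 14 (-1.83, SE 0.435, adjusted p = 0.322), with no overlap. Ctsk, the collagen-degrading protease of osteoclasts, was at 517 to 2734 CPM against 1005 to 2093 CPM (log2 fold change -0.29, SE 0.501, and -0.60 to -0.06 with 1 rat left out). Acp5, tartrate-resistant acid phosphatase, was at 115 to 895 CPM against 301 to 783 CPM. The ligand Tnfsf11 (RANKL) was at 1.56 to 4.55 CPM against 2.0 to 2.66 CPM, its receptor Tnfrsf11a at 10.5 to 33.9 CPM against 11.1 to 16.5 CPM and its decoy Tnfrsf11b (osteoprotegerin) at 5.51 to 19.3 CPM against 4.0 to 8.46 CPM. In these genes the day 14 rats lay mostly within the wider day 7 range.

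Cartilage genes had one clear member. Acan, the cartilage proteoglycan aggrecan, was at 92.4, 136, 60.2 and 368 CPM at day 7 and at 17.8, 9.62, 23.4 and 21.8 CPM at day 14 (log2 fold change -3.18, SE 0.605, adjusted p = 0.244), with no overlap. Of 17 tested, 6 were higher, and 0 higher and 3 lower had unadjusted p under 0.05, against 5.21% and 4.22% of all genes. Col2a1, the cartilage collagen, overlapped, at 6.81 to 51.5 CPM against 1.14 to 70.8 CPM, as did Sox9, at 5.24 to 58.7 CPM against 2.92 to 12.3 CPM, and Col10a1, of hypertrophic cartilage, at 0.947 to 6.69 CPM against 0.296 to 27.3 CPM. Hapln1, a link protein, was at 178 CPM in day 7 rat 3 and at 1.15 to 9.12 CPM in the other day 7 rats, against 1.31 to 2.83 CPM at day 14, and Col9a1 was likewise highest in that rat, at 11.5 CPM against 0.157 to 1.45 CPM in the others of day 7. Aggrecan was thus lower at day 14 in every rat while these other cartilage genes overlapped or were led by day 7 rat 3.

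Day 7 rat 3 also set most of the difference in morphogen genes. Bmp2, a bone morphogen, was at 91.5 CPM in that rat and 5.24 to 7.23 CPM in the others of day 7, against 5.02 to 9.24 CPM at day 14, so that its log2 fold change of -2.08 was 0.02 without that rat. Bmp7 was at 83.0 CPM in it and 0 to 5.08 CPM in the others, against 0.811 to 2.05 CPM. Wnt5a was at 128 CPM in it and 14.6 to 25.8 CPM in the others, against 7.16 to 16 CPM (-2.08, SE 0.728, and -0.86 without it), and Rspo2, a Wnt amplifier, at 12.8 CPM and 0.633 to 4.26 CPM against 0.865 to 1.82 CPM. Tgfb1 was at 97.1 to 112 CPM against 64.3 to 150.3 CPM, and Gdf10, a ligand of the same family, at 1.41 to 2.26 CPM against 2.43 to 6.49 CPM (1.10, SE 0.376, adjusted p = 0.484) with no overlap. Over the lists, 2 of 23 BMP and TGF-beta genes were higher and 1 lower at unadjusted p under 0.05 (median -0.30), against 5.21% and 4.22% of all genes. By the same threshold 0 of 24 Wnt genes were higher and 4 lower (median -0.44, and -0.10 without day 7 rat 3). This rat held the enamel genes Amelx, at 279 CPM, and Ambn, at 324 CPM, and the epithelial keratins Krt5, at 229 CPM, and Krt14, at 86.0 CPM. In the other 3 day 7 rats these were at 0.681 to 24.0, 0.576 to 19.2, 0.105 to 6.99 and 0 to 6.34 CPM, and at day 14 at 0 to 0.973, 0 to 1.03, 0 to 2.37 and 0 to 2.43 CPM. Dspp, of dentin, was at 288 CPM in day 7 rat 2, 247 CPM in rat 3 and at most 0.251 CPM in the other 6. The part of tooth tissue in the morphogen values was not tested.

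Muscle and blood differed between the rats of a day. Of 35 muscle genes tested, 16 were higher at day 14 and 0 had unadjusted p under 0.05, against 5.21% of all genes higher and 4.22% lower. The median was -0.04 and was 0.36 without day 14 rat 2. Acta1, skeletal actin, was at 4842, 8990.2, 2509.8 and 5164 CPM at day 7 against 12115, 106, 4882 and 7170.3 CPM at day 14. Myh3, the embryonic myosin of regenerating fibres, was at 1475, 1941, 482 and 338 CPM against 996, 3.51, 809 and 1024 CPM, the satellite cell factor Pax7 at 7.29 to 37.9 CPM against 20.4, 0.270, 23.3 and 15.8 CPM and Myod1 at 4.69 to 35.4 CPM against 16.9, 0.270, 37.0 and 14.4 CPM. Genes of regenerating muscle were thus well above 0 in 7 of 8 rats and low in day 14 rat 2. Hba-a1 ranged from 1352 to 181367 CPM at day 7 and from 5819 to 105687 CPM at day 14, and Hbb from 782 to 113358 CPM and from 3252 to 66584 CPM.

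Cell division genes depended on 1 rat for their direction. All 30 tested had a higher fitted level at day 14, with a median of 0.35 and 0 at unadjusted p under 0.05, against 5.21% of all genes. Without day 14 rat 2 only 6 of 30 were higher, with a median of -0.16. Mki67, the proliferation antigen, was at 55.7, 48.7, 89.8 and 52.3 CPM at day 7 against 35.9, 218, 35.2 and 114 CPM at day 14, and Top2a at 28.4 to 97.4 CPM against 33.0, 182, 25.8 and 80.2 CPM. Of 26 endothelial genes 16 were higher, 2 with unadjusted p under 0.05 (5.21% of all genes), with a median of 0.14. Without day 14 rat 2, 21 of 26 were higher, 6 with unadjusted p under 0.05, with a median of 0.40. In that fit 756 of 14867 genes were higher at unadjusted p under 0.05. Angpt1, a ligand that steadies vessels, was at 18.4 to 31.9 CPM against 33.8 to 55.9 CPM (0.79, SE 0.240, adjusted p = 0.439) with no overlap, Pecam1 was at 152 to 268 CPM against 121 to 409 CPM, and Esm1, a tip cell gene, at 2.35 to 4.97 CPM against 2.96, 39.4, 8.86 and 9.04 CPM. Of 38 genes of oxidative phosphorylation 2 were higher, with a median of -0.19 (-0.02 without day 14 rat 2). At unadjusted p under 0.05 there were 0, against 5.21% of all genes higher and 4.22% lower. Of 24 glycolysis genes 8 were higher and 16 lower, with a median of -0.10. At unadjusted p under 0.05, 1 was higher and 2 were lower, against 5.21% and 4.22% of all genes. With no overlap, 1 was higher and 1 lower, against 2.52% and 3.03%. The higher one was Slc2a3, a glucose transporter of neurons and leukocytes, at 27.4 to 32.2 CPM against 41.4 to 92.1 CPM (0.96, SE 0.258, adjusted p = 0.384). The myofibroblast gene Acta2 was at 116 to 207 CPM against 36.4 to 242 CPM, and ribosomal protein genes had a median of -0.09.

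**Figure D4:**
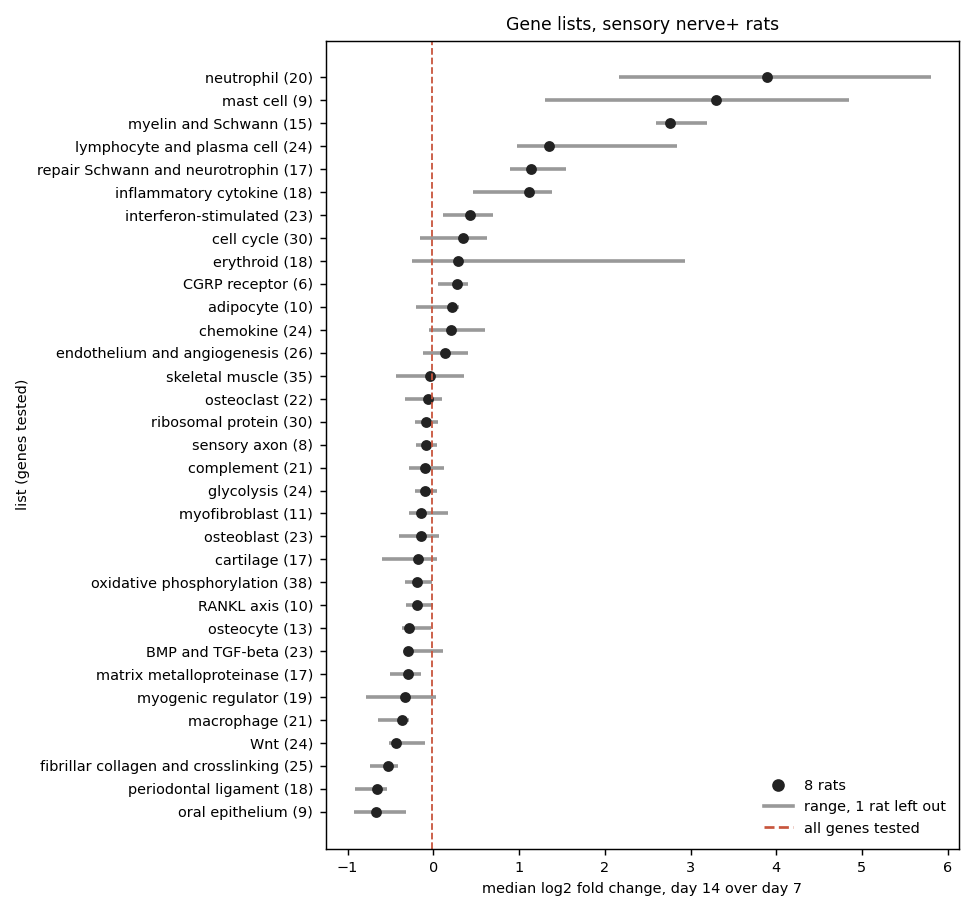
Median log2 fold change, day 14 over day 7, of each gene list with 5 or more tested genes (black point, number of tested genes in brackets), the range of that median over the 8 fits that each leave out 1 rat (grey bar) and the median of all genes tested (dashed line at -0.02). The myelin and Schwann cell list sits at 2.76 with a narrow range of 2.60 to 3.19, whereas the neutrophil list at 3.89 ranges from 2.16 to 5.80.

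Levels in the 3 sensory nerve+ rats of day 3 place these values in time, on a scaling over all 23 rats and with no test. Sox2 was at 0.131, 0.571 and 0.360 CPM at day 3, like day 7 (0.169 to 0.556 CPM) and unlike day 14 (6.66 to 14.5 CPM). Cdh19 was at 0 to 0.308 CPM at day 3, 0.763 to 2.71 CPM at day 7 and 10.6 to 46.5 CPM at day 14, and Gfra1 at 0.916 to 8.48, 10.1 to 31.0 and 82.7 to 170.1 CPM, so that these 2 genes were ordered by day without overlap. Msr1 ran the other way, at 341, 116 and 133 CPM at day 3, 27.8 to 50.5 CPM at day 7 and 6.62 to 9.46 CPM at day 14. Arg1 was at 483, 82.7 and 72.8 CPM, then 3.48 to 8.38 CPM, then 0.751 to 2.64 CPM. Lox was at 465 to 1172 CPM, then 296 to 453 CPM, then 99.9 to 242 CPM, and P4ha2 at 91.0 to 226 CPM, then 44.8 to 69.0 CPM, then 16.5 to 35.6 CPM. The day 14 levels of Msr1, Arg1, Lox and P4ha2 were thus the lowest of the 3 days. Not every gene ran one way over the 3 days. Pappa1 was lowest at day 7, at 9.67 to 18.1 CPM, then 2.88 to 5.57 CPM, then 13.2 to 31.6 CPM. Cthrc1 was highest at day 7, at 68.5 to 88.2 CPM, then 97.7 to 199.9 CPM, then 31.9 to 94.1 CPM. The genes of this paragraph were picked with their values known.

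Whether the change from day 7 to day 14 depended on the nerve was tested as a difference of changes with the 8 sensory nerve- rats of the same days. Their day 7 rats were deposited in a separate table, so that table and group cannot be told apart in this comparison. Of 15291 genes tested, 0 passed the adjusted threshold (edgeR, smallest adjusted p = 0.925) and 586 (3.83%) had unadjusted p under 0.05. DESeq2 also called 0, with 804 at unadjusted p under 0.05. Within this fit 26 genes passed the adjusted threshold for the change in sensory nerve+ rats and 3 for that in sensory nerve- rats. At unadjusted p under 0.05 the order was reversed, with 1686 genes in sensory nerve+ and 3945 in sensory nerve- rats.

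Cldn19 had the lowest unadjusted p among differences below 0, and 8 of the 15 myelin and Schwann cell genes had unadjusted p under 0.05, against 3.83% of all genes. Values in this comparison are on the scaling over all 23 rats and fold changes are from the fit of 16 rats. The median log2 fold change of the list was 2.73 in sensory nerve+ and 0.83 in sensory nerve- rats. Cldn19 was at 0.956, 0.434, 0.0977 and 0.450 CPM at day 7 and at 0.0818, 0.282, 1.44 and 0.278 CPM at day 14 in the sensory nerve- rats, a log2 fold change of 0.02 against 5.71 (difference -5.69, SE 1.33). The sensory nerve- rats of day 14 lay within or near the range of day 7, while the sensory nerve+ rats did not. Mbp was at 6.80 to 11.2 CPM and then at 33.7 to 50.8 CPM, 2.27 against 4.63 (difference -2.36, SE 0.695). Pmp22 was at 72.0 to 151 CPM and then at 29.1 to 78.1 CPM, -1.01 against 1.61 (difference -2.62, SE 0.768).

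For Sox10, Sox2 and Fgf5 the difference was small beside its SE or close to it. Sox10 was at 0.342 to 1.54 CPM and then at 4.01 to 20.4 CPM in sensory nerve- rats, 3.65 against 4.32 (difference -0.67, SE 0.947). Sox2 was at 0.0489 to 0.488 CPM and then at 1.15 to 8.29 CPM, 3.97 against 4.72 (difference -0.75, SE 0.922), and Fgf5 at 0 to 0.321 CPM and then at 1.85 to 8.12 CPM, 4.39 against 5.77 (difference -1.38, SE 1.03). A difference that misses the threshold does not show that the groups acted alike. Msr1 was at 25.7, 112, 115 and 95.5 CPM and then at 10.6, 14.0, 5.96 and 8.70 CPM, -3.14 against -2.28 (difference -0.86, SE 0.533).

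**Figure D5:**
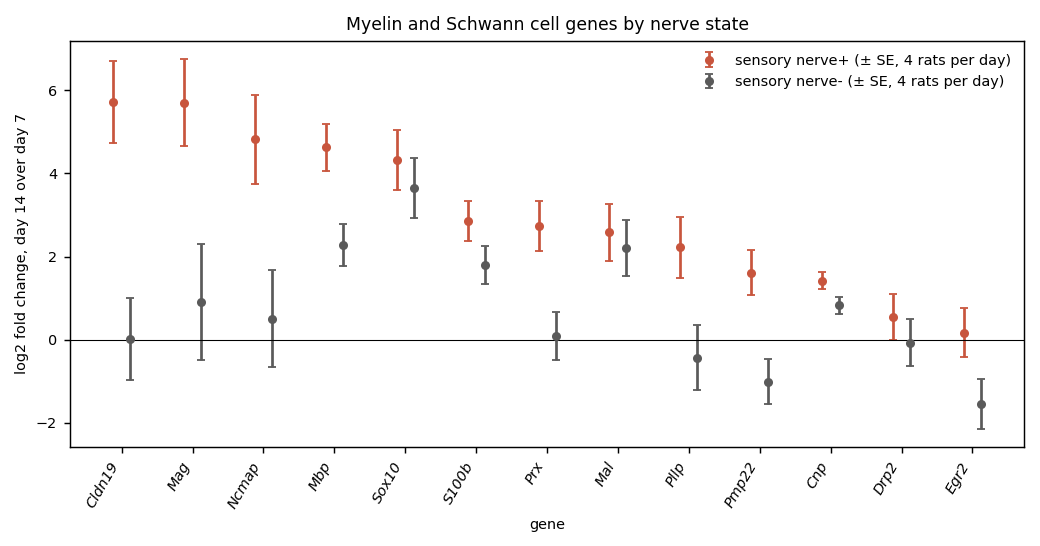
Log2 fold change, day 14 over day 7, of 13 myelin and Schwann cell genes in sensory nerve+ (red) and sensory nerve- (grey) rats, with bars of 1 SE and 4 rats per day in each group. The 2 groups lie apart for Cldn19, Mbp and Pmp22, and closer together for Sox10.

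Kif1a, an axonal motor of synaptic vesicle precursors, was also among the 3 genes with the lowest p for a difference below 0, at 1.78 to 2.35 CPM and then 23.5, 3.15, 6.89 and 19.3 CPM in sensory nerve+ rats and a difference of -3.20 (SE 0.905). Slc16a1, a lactate transporter, was at 58.7 to 86.4 CPM and then at 28.1 to 39.2 CPM in sensory nerve- rats (difference -1.11, SE 0.303). Of differences above 0, Prpsap1 (difference 0.80, SE 0.176), Tub (1.89, SE 0.435) and Rhbdl2 (1.93, SE 0.451) had the lowest p. Rhbdl2, a rhomboid protease, was at 4.05 to 6.75 CPM and then at 22.3 to 29.9 CPM in sensory nerve- rats, against 3.38 to 11.7 CPM and 8.04 to 13.7 CPM. Some bone and cartilage genes had differences above 0 as well. Alpl was at 14.0 to 101 CPM and then at 99.6 to 881 CPM in sensory nerve- rats (difference 3.29, SE 1.09), Sp7 differed by 2.95 (SE 1.23), and Col2a1, at 0.928 to 2.89 CPM and then at 162, 432, 2.76 and 158 CPM, by 6.55 (SE 1.76). In the osteoblast list 6 of 23 genes had unadjusted p under 0.05 for the difference, against 3.83% of all genes. The medians of the list were -0.17 in sensory nerve+ and 1.39 in sensory nerve- rats. None of these differences passed the adjustment, with edgeR adjusted p of at least 0.925 for every gene.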

How the data were processed

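Total RNA from healing jaw tissue was sequenced on a DNBSEQ instrument. The authors cleaned the reads and aligned them with HISAT to rat mRatBN7.2, and Bowtie2 is also named per the labels. The program that estimated counts is not given in the sources used here. The deposited values are expected counts per gene, and 37% of them were whole numbers. They were rounded here. Genes were filtered with filterByExpr, scaled by TMM and tested with edgeR 4.0.16 (quasi-likelihood, Benjamini-Hochberg) in R 4.3.3, with DESeq2 1.42.0 as an alternative and Python 3.11.15 for summaries. The procedure was tested on simulated counts with planted changes, drawn separately for each gene. Shifts in tissue makeup shared by many genes were not simulated, so the simulation cannot show how such shifts affect the calls. Fold changes are day 14 over day 7. Members and gene lists were chosen with earlier results of these data known. Named genes were the 8 with the smallest p in each direction among those without overlap, the defining genes and the 3 smallest p of each list, the 3 smallest p in each direction of the difference, and hemoglobin genes. Each sample is a separate rat. Macrophage samples were not used here. Some genes that the rule names are not reported here.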

Additional observations from a re-analysis of the deposited data

Results flagged for a closer look

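Within groups of 4 rats, 28 of 333 groups of values held 1 rat far from the other 3 by Dixon's test, where chance marks about 1 in 20, or 16.6 groups. No cause was weighed for any of them.

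Day 14 rat 2 was marked more often than any other rat. Its muscle genes averaged 3.31 on the log2 CPM scale and its myogenic regulators 1.78, with Myh3 at 3.51 CPM and Pax7 at 0.270 CPM. Its repair Schwann cell genes averaged 2.05 and its osteoclast genes 6.24. In the same rat Tubb3 stood at 1.78 CPM, Postn at 444 CPM and Adamts1 at 21.6 CPM, below the other day 14 rats, while Ramp3 stood at 22.7 CPM, C3 at 335 CPM, Amelx at 0.973 CPM and Ambn at 1.03 CPM, above them.

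Day 7 rat 3 was apart in Sox9 at 58.7 CPM and Bmp2 at 91.5 CPM, both high, and in Ramp1 at 3.5 CPM, which was low. Its macrophage genes averaged 5.44 and its adipocyte genes 2.61, both the lowest of day 7. Day 7 rat 4 was high in Ramp3 at 17.9 CPM, Mpo at 8.77 CPM, Elane at 2.26 CPM, Tpsb2 at 2.26 CPM, Ms4a2 at 2.53 CPM and the mast cell list at 1.97, and low in Itgb8 at 4.07 CPM. The osteocyte list was low in day 7 rat 1, at 3.51. Esm1 was low in day 7 rat 2, at 2.35 CPM. Krt14 was high in day 14 rat 3, at 2.43 CPM.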

How the results depend on the processing

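The number of genes past the adjusted threshold between day 7 and day 14 was 3. DESeq2 called 325 and scaling by library totals called 13. Leaving out each rat in turn gave 0 to 28 calls, with 28 without day 14 rat 2, 1 without day 14 rat 1 and 0 without any of the other 6. RLE size factors, both other filters on low counts and removal of hemoglobin genes gave 3, with the same genes each time. A fit of all 23 rats gave 2 calls, with 0 of the 3 among them. The replicate numbers name different rats on each day, and same-numbered rats correlated at 0.0748, -0.271, 0.0333 and 0.213, with rat 4 alone matching its own number best. With the replicate block 0 genes were called between the days (1141 at unadjusted p under 0.05) and 0 for the difference with sensory nerve- rats (424).

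Among genes whose fold changes were followed across the settings, the signs of Kit, Bmp2 and Mki67 turned when 1 rat was left out. The log2 fold change of Kit ranged from -2.43 to 0.34 and that of Bmp2 from -2.41 to 0.02, each highest without day 7 rat 3. That of Mki67 ranged from -0.00 to 0.99, lowest without day 14 rat 2. Some other genes are given by their values per rat alone, among them Runx2, Sp7, Alpl, Sox9 and Col2a1. Their log2 fold changes were 0.14, -0.55, -0.72, -1.41 and 0.12, so that not all were near 0. Each crossed 0 as well when 1 rat was left out, from -1.51 to 0.27 for Sp7 and from -1.11 to 0.07 for Alpl. The range was -1.78 to 0.23 for Sox9 and -1.47 to 0.99 for Col2a1. The median of lymphocyte genes was 2.84, of mast cell genes 4.85 and of erythroid genes 2.94 without day 7 rat 4. The cause of these shifts was not tested. With 4 rats per day, and 3 of the 8 libraries apart in tissue makeup, the spread between rats of a day limits what could be called.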
